A study of Mus musculus with 12 samples.

Results

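The genes of the proteins of the cytosolic ribosome were followed in C2C12 cells, a mouse myoblast line, after silencing of *Zbed6*. Members were taken by symbol from the platform annotation: symbols that start with Rpl or Rps and a digit, or with Rplp, and also *Rpsa* and *Fau*. The S6 kinase genes, *Rps19bp1* and pseudogenes were left out. By this rule 66 of the 16593 gene symbols on the array were members, 40 of the large and 26 of the small subunit. Of these, 61 (37 large and 24 small) were measured among the 8858 genes tested. The rule itself uses symbols and no measured value.

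The ribosome reads mRNA on its small subunit and joins amino acids on its large subunit, and most of its proteins are needed in equal amounts. The mRNAs of these proteins are TOP mRNAs: they begin with a C followed by a run of C and T (in DNA letters), and the mTORC1 kinase controls their translation through this run, by way of the protein LARP1. A few members have a paralog that can take their place, and in striated muscle RPL3L replaces RPL3.

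There were 4 groups of samples, with 3 arrays each and 12 in all: cells given siRNA against *Zbed6* (called silenced cells here) and cells given a negative control siRNA, both at 96 h and both at 48 h after transfection. All cells were grown in serum-containing medium and transfected with lipofectamine, and total RNA was hybridized to Illumina MouseRef-8 arrays. ZBED6 is a transcription factor that came from a DNA transposon and represses *Igf2*. The replicates are described as biological, and all come from 1 cell line.

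Between 12078 and 12558 of 25697 probes were detected per array, and arrays of a group correlated at 0.9939 or more. *Zbed6* itself is not named by any probe of the tables used, so the silencing was not checked on these arrays; the study's methods describe a check by quantitative PCR and western blot, which was not analysed here. Of 29 myoblast and muscle markers, 26 were detected on all 12 arrays, while *Myf5* and *Pax7*, both markers of muscle precursors, were detected on none. On no array were 5 of 6 leukocyte, 5 of 8 adipocyte, 6 of 9 epithelial and endothelial and 5 of 7 neural markers detected.

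Start regions of 57 of the 66 members were found in RefSeq (build GRCm38.p6). Those below run from 25 bases before to 35 bases after the annotated start and belong to members whose values are described in the following paragraphs. Capitals mark the longest unbroken run of C and T on the gene's own strand within 20 bases of the start.
Rpl27a (chr7:109519170-109519229, plus strand): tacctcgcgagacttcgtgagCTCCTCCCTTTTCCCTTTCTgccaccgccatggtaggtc
Rpl7a (chr2:26910782-26910841, plus strand): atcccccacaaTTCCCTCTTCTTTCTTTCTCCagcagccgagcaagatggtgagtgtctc
Rpl22l1 (chr3:28805483-28805542, plus strand): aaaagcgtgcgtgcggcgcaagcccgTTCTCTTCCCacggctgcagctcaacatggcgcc
Rpl14 (chr9:120571492-120571551, plus strand): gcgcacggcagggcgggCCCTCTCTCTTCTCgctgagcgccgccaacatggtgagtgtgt
Fau (chr19:6057922-6057981, plus strand): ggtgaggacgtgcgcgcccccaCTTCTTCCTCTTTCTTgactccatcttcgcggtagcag
Rps15a (chr7:118116113-118116172, minus strand): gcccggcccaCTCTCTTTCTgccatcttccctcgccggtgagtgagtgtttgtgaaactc
Rpl7l1 (chr17:46782622-46782681, minus strand): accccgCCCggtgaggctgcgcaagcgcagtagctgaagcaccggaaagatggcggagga

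The run was 20 bases long in *Rpl27a*, 21 in *Rpl7a*, 16 in *Fau*, 14 in *Rpl14*, 10 in *Rpl22l1* and *Rps15a*, and 3 in *Rpl7l1*. A run of 8 or more stood in 42.6% of the 68 annotated start regions of the 57 members, against 16% of 32851 start regions of all genes. GCTCG, the core of the motif that ZBED6 binds, was searched on both strands over 250 bases before to 50 after the start. It stood in 58.8% of the members' regions, against 29.8% of all. TTCCGG, the core read by GABP and other ETS factors, stood in 44.1% and 14.9%. These are matches of letters, not sites, and the base composition of the regions was not matched.

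At 48 h, more ribosomal protein genes lay above than below their level in control cells. Of 61 measured, 48 had a log2 difference above 0, with a median of 0.09 against 0.00 over all genes tested. Past the threshold (limma, Benjamini-Hochberg adjusted p under 0.05 over 8858 genes) were 6, all higher in silenced cells: *Rpl3l*, *Rpl14*, *Rpl22*, *Rpl27a*, *Rpl21* and *Fau*. Over all genes tested 10.2% were called, 4.63% higher and 5.61% lower. The large subunit had 5 of 37 called with a median difference of 0.13, and the small subunit 1 of 24 with a median of 0.06. Of 69 mitochondrial ribosomal protein genes 52 also lay above 0 (median 0.14). So did 19 of 27 ribosomal subunit assembly factors (median 0.14), against 10 of 20 translation initiation factors.

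*Rpl3l* (chr17:24727826-24736143), the muscle paralog of *Rpl3*, had the largest log2 difference among the members on both days in the processing used here. Its log2 signals at 48 h were 6.24, 6.06 and 6.33 in silenced cells, against 5.58, 4.98 and 5.03 in control cells. The groups did not overlap, and the probe was detected on 3 of 3 silenced arrays and on 1 of 3 control arrays. The log2 difference was 1.01 ± 0.16 (SE, n = 3 each, limma, adjusted p = 0.0105), measured against a group of which 2 of 3 arrays were below detection. Its size depended on the processing: it was 0.55 without background correction, 0.61 with an offset of 50 and 0.11 with the authors' processed values (adjusted p = 0.0481). With the authors' values *Rpl14*, at 0.14, lay above *Rpl3l*, so the rank was lost as well. At 96 h the signals were 7.46, 6.64 and 6.30 in silenced cells, against 5.73, 6.25 and 6.02 in control cells. Here too the groups lay apart, but the difference of 0.80 ± 0.27 did not pass (adjusted p = 0.101), and it was 0.14 with the authors' values. The silenced array at 7.46 stood well above the others. The difference between the days was −0.21 ± 0.35 (adjusted p = 0.751).

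*Rpl3* itself, whose product RPL3L replaces in muscle, had log2 differences of −0.05 ± 0.09 at 96 h (adjusted p = 0.785) and −0.08 ± 0.08 at 48 h (adjusted p = 0.551). Its signal was near the top of the array's range, at 14.9 to 15.1. Part of the muscle genes moved in the direction of *Rpl3l*. Of 27 measured myoblast and muscle markers, 25 lay above 0 and 2 below at 96 h (median log2 difference 0.23). At 48 h 18 lay above 0 and 9 below (median 0.17), with *Des* and *Myh7* among those below. Past the threshold 6 rose in silenced cells and none fell at 96 h, and 5 rose and none fell at 48 h. That is 22.2% higher at 96 h and 18.5% at 48 h, where 3.44% and 4.63% of all genes were called higher. They included *Ckm*, muscle creatine kinase (0.81 ± 0.12 at 96 h), *Mef2c*, a myogenic transcription factor (0.91 ± 0.12 at 48 h), and *Tnni1*, a troponin of slow fibres (0.50 ± 0.09 at 48 h). The summed signal of the list was 455966 to 482222 in silenced cells and 394017 to 423002 in control cells at 96 h. At 48 h it was 420292 to 453570 in silenced cells and 404672 to 424521 in control cells. The array with the highest *Rpl3l* signal also had the highest median of this list, 0.26 above the genes' means. Of 8 adipocyte markers, *Pparg* and *Lpl*, which muscle also expresses, were measured, while *Adipoq*, *Fabp4*, *Plin1*, *Cidec* and *Retn* were detected on no array. *Lpl* was 0.98 ± 0.10 higher in silenced than in control cells at 48 h (adjusted p = 0.00186), and the summed signal of the pair was 823.4 to 953.5 in silenced cells and 531.7 to 560.3 in control cells. The part of these markers in the *Rpl3l* result was not tested, and fewer cells of a kind and less RNA per cell cannot be told apart in bulk RNA.

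The promoter of *Rpl3l* is shown because this gene had the largest difference on both days in the processing used here. It spans chr17:24727576-24727875 (plus strand, RefSeq, GRCm38.p6), 250 bases before to 50 after the more upstream of its annotated starts. Capitals mark CANNTG, the E-box letters read by MyoD and related myogenic factors, which read the same on both strands.
Rpl3l promoter: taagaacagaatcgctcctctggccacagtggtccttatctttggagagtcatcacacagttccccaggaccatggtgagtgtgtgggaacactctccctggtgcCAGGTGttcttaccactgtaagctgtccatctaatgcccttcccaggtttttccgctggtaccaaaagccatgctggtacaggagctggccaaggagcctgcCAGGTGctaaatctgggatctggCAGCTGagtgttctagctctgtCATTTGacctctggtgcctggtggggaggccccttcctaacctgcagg
It held 4 such matches, no GCTCG, and a longest C and T run of 5 near the start. CANNTG stood in 54.4% of the members' regions and in 72.3% of all regions of this length.

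The other members that rose at 48 h did so by less. *Rpl14*, of the large subunit, had log2 signals of 7.39, 7.63 and 7.53 in silenced cells, against 6.74, 7.03 and 7.22 in control cells, a difference of 0.52 ± 0.13 (adjusted p = 0.0407). *Rpl22* had 11.38, 11.19 and 11.09 in silenced cells, against 10.62, 10.83 and 10.75 in control cells (0.48 ± 0.11, adjusted p = 0.0275). In neither gene did the groups overlap. *Rpl27a*, also of the large subunit, had 11.08, 10.98 and 11.04 in silenced cells, against 10.47, 10.65 and 10.71 in control cells (0.42 ± 0.09, adjusted p = 0.0289). *Rpl21* had 6.79, 6.97 and 6.96 in silenced cells, against 6.43, 6.66 and 6.45 in control cells (0.40 ± 0.10, adjusted p = 0.0419). *Fau*, which encodes a ubiquitin-like protein fused to the small subunit protein eS30, had 13.51, 13.54 and 13.52 in silenced cells, against 13.08, 13.14 and 13.27 in control cells (0.36 ± 0.09, adjusted p = 0.037). Each of the 3 also had all silenced arrays above all control arrays. An exact permutation test of 3 against 3 arrays gives at best p = 0.1, which all 6 genes reached (two-sided). These genes were picked by their calls on the same arrays, so reaching it adds no support. At 48 h the groups lay apart in 37.7% of members and 34.1% of all genes.

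These calls were sensitive to single arrays. When any 1 of the 6 arrays of 48 h was left out, 1 or 2 members stayed past the threshold, and *Rpl3l* stayed in each case. The count was 12 with median scaling, where 6.01% of all genes were called higher. It was 2 with the replicate number as a block, where 3.38% were, and these 2 were *Rpl3l* and *Rpl14*. With the authors' processed values the count was 11, where 5.69% of all genes were called higher. *Rpl14* (0.14, adjusted p = 0.0592) and *Rpl21* (0.07, adjusted p = 0.117) were then not called. Without the filter on dim probes these same genes also missed the threshold (adjusted p of 0.0676 and 0.0534). The signals of both were low beside those of most members, so their differences may say little of the level of their mRNA.

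**Figure D1:**
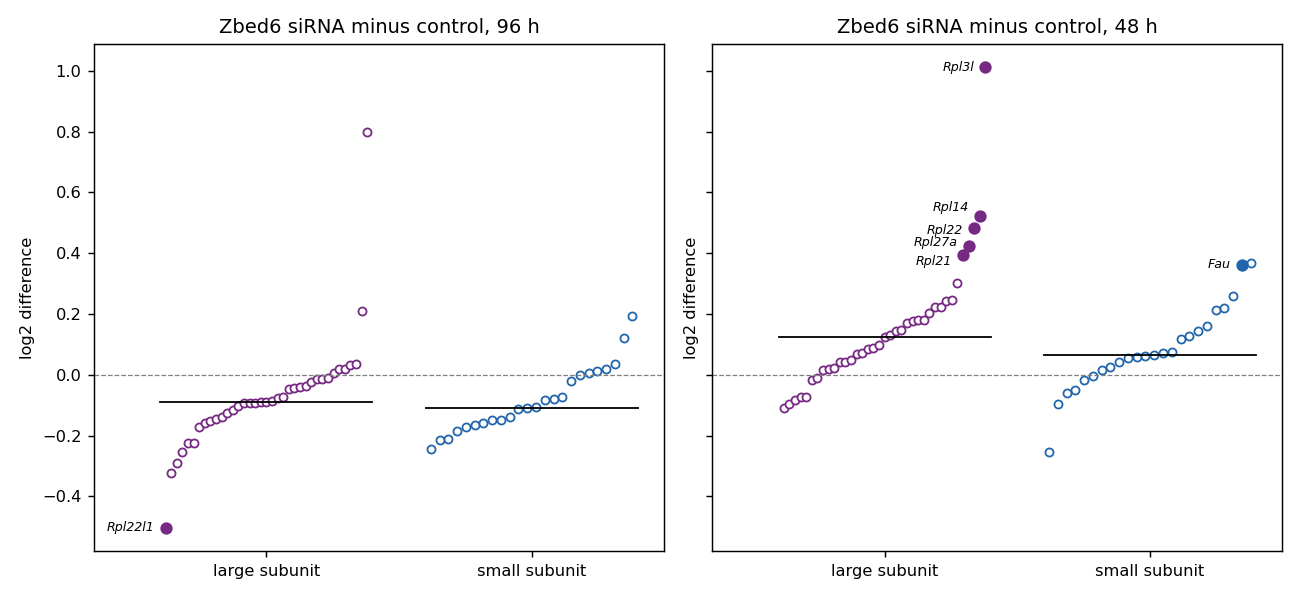
Log2 difference (silenced minus control cells) of the 61 measured ribosomal protein genes at 96 h (left) and 48 h (right), by subunit, each point 1 gene, sorted within its subunit. Filled points passed the threshold (1 at 96 h, 6 at 48 h) and black bars are medians, which lie below 0 at 96 h and above 0 at 48 h; *Rpl3l* is the highest point on both days.

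At 96 h the balance was the other way round. Of the 61 members, 13 had a difference above 0, and the median was −0.09 (large −0.09, small −0.11) against 0.00 over all genes tested. No member rose past the threshold and 1 fell, where 6.83% of all genes were called, 3.44% higher and 3.39% lower. At an unadjusted p under 0.05, 1 rose and 9 fell, and the share of all genes at that level was not counted. The groups lay apart in 34.4% of members and 32.1% of all genes. *Rpl22l1* (chr3:28805508-28807424), the paralog of *Rpl22*, had log2 signals of 7.93, 7.78 and 8.05 in silenced cells, against 8.39, 8.63 and 8.25 in control cells. The groups lay apart, and the difference was −0.50 ± 0.12 (adjusted p = 0.0405). Without any 1 of the 6 arrays its adjusted p lay above the threshold, so no member was then called. With the authors' processed values, which called 4 members and 3.5% of all genes lower, *Rpl22l1* was at −0.22 (adjusted p = 0.0617). *Rpl22* differed by −0.02 ± 0.08 at 96 h (adjusted p = 0.928). *Rpl7a* came next to the threshold at −0.32 ± 0.08 (adjusted p = 0.0541).

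Over time in control cells more ribosomal protein genes rose than fell. From 48 h to 96 h, 50 of 61 had a change above 0, with a median log2 change of 0.16 against 0.02 over all genes tested. Past the threshold 20 rose and 2 fell, where 32.9% of all genes were called, 17.7% higher and 15.2% lower. The large subunit had 13 of 37 higher (median 0.19) and the small subunit 7 of 24 (median 0.13). Of the 61 members, 57.4% had the 3 arrays of one day all above those of the other, against 48.2% of all genes. Marker genes moved over the same span. Of the 27 muscle markers 7 rose and 5 fell (25.9% and 18.5%), among them *Mef2c* (2.35 ± 0.14) and *Ckm* (−1.21 ± 0.15), and the adipocyte marker *Lpl*, which muscle also expresses, rose by 2.08 ± 0.11. The summed signal of the *Lpl* and *Pparg* pair was 1532 to 1840 at 96 h and 531.7 to 560.3 at 48 h, while that of the muscle list was 394017 to 423002 at 96 h and 404672 to 424521 at 48 h. None of the leukocyte, epithelial and endothelial, and neural markers measured was called. The part of these markers in the members' change was not tested.

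*Rps27*, of the small subunit, had log2 signals of 14.49, 14.46 and 14.45 at 96 h, against 14.06, 14.02 and 14.18 at 48 h, a rise of 0.38 ± 0.08 (limma, adjusted p = 0.00248). *Rps3a1*, also of the small subunit, had 11.85, 11.84 and 11.76 at 96 h, against 11.05, 11.41 and 11.51 at 48 h (0.49 ± 0.11, adjusted p = 0.00378). *Rplp0*, the base of the acidic stalk where elongation factors dock, had 10.16, 10.11 and 10.10 at 96 h, against 9.72, 9.67 and 9.73 at 48 h (0.41 ± 0.08, adjusted p = 0.00261). In all 3 the arrays of the 2 days lay apart. The stalk protein gene *Rplp1*, with signals of 15.37 to 15.40 on all 6 control arrays, differed by 0.01 ± 0.07 (adjusted p = 0.927), but lay above the level of *Rpl3* and so also near the top of the array's range.

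*Rpl3l* rose by 0.80 ± 0.25 (adjusted p = 0.0241) and *Rpl22l1* by 0.63 ± 0.13 (adjusted p = 0.00263). The *Rpl3l* call was lost without control replicate 2 or 3 of either day, with adjusted p of 0.0568 to 0.0946. It was also lost with the authors' processed values, at 0.09 (adjusted p = 0.222), and without the filter on dim probes (adjusted p = 0.0525), and the rise was 0.43 without background correction and 0.47 with an offset of 50. The *Rpl22l1* rise was 0.27 with the authors' values and stayed past the threshold. *Rpl36a* rose by 0.38 and its paralog *Rpl36al* by 0.30, a call lost without control replicate 1 of 48 h (adjusted p = 0.0508) or replicate 2 of 96 h (adjusted p = 0.0635) and with median scaling (adjusted p = 0.0599). Besides these, *Rpl35a*, *Rps4x*, *Rps16*, *Rpl37a* and *Rpl39* rose by between 0.27 and 0.37; median scaling ended the calls of *Rps16* and *Rpl37a* (adjusted p of 0.0556 and 0.0552). *Rps27l*, the paralog of *Rps27*, differed by 0.20 (adjusted p = 0.094).

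Both members that fell did so in control cells from 48 h to 96 h. *Rps15a*, of the small subunit, had log2 signals of 6.35, 6.23 and 6.13 at 96 h, against 6.65, 6.66 and 6.63 at 48 h (−0.41 ± 0.08, adjusted p = 0.00197). *Rpl7l1*, a paralog of *Rpl7* whose human product acts in early assembly of the large subunit, had 10.68, 10.69 and 10.82 at 96 h, against 11.02, 11.09 and 11.22 at 48 h (−0.38 ± 0.09, adjusted p = 0.00826). The groups did not overlap in either. A second, dimmer probe of *Rpl7l1* gave −0.09 ± 0.09, and the mean over both was −0.23. The fall of *Rps15a* was −0.26 without background correction and −0.07 with the authors' values, past the threshold in both. Its signals were low beside those of most members in all groups, so its changes may say little of the level of its mRNA.

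**Figure D2:**
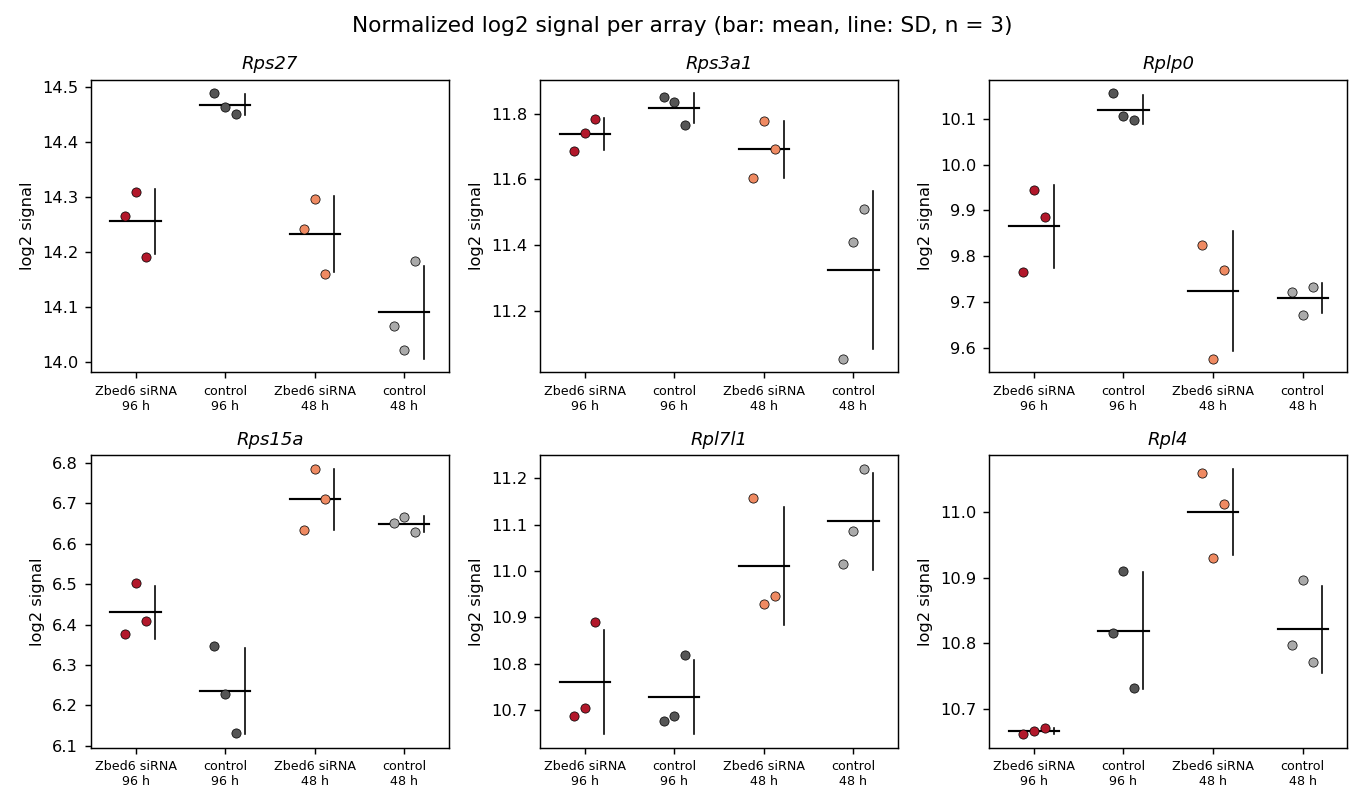
Normalized log2 signal on each array for 3 members that rose with time in control cells (*Rps27*, *Rps3a1*, *Rplp0*) and 3 that fell in control cells, silenced cells or both (*Rps15a*, *Rpl7l1*, *Rpl4*). Each point is 1 array, bars are means and vertical lines SD (n = 3); each panel has its own axis, which does not start at 0, and the 96 h control arrays lie above the 48 h control arrays in the first 3 panels.

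In silenced cells over the same span, no ribosomal protein gene was called higher. Of 61 members, 25 had a change above 0, and the median was −0.03 against 0.02 over all genes tested. Past the threshold 0 rose and 3 fell, where 28% of all genes were called, 15.6% higher and 12.4% lower. At an unadjusted p under 0.05, 2 rose and 9 fell, and the share of all genes at that level was not counted. *Rpl4*, of the large subunit, had log2 signals of 10.66, 10.67 and 10.67 at 96 h, against 11.06, 10.93 and 11.01 at 48 h (−0.33 ± 0.08, adjusted p = 0.00585). *Rpl27a* had 10.75, 10.67 and 10.67 at 96 h, against 11.08, 10.98 and 11.04 at 48 h (−0.34 ± 0.08, adjusted p = 0.00778). *Rps15a* had 6.38, 6.50 and 6.41 at 96 h, against 6.63, 6.79 and 6.71 at 48 h (−0.28 ± 0.08, adjusted p = 0.0201). The arrays of the 2 days lay apart in each, as they did in 24.6% of members and 42.2% of all genes. The *Rps15a* call was lost without silenced replicate 2 of 48 h or replicate 1 or 3 of 96 h (adjusted p of 0.0505 to 0.0712). It was also lost with the authors' processed values, at −0.05 (adjusted p = 0.08), and without background correction, at −0.18 (adjusted p = 0.0575). The *Rpl27a* call was lost with the mean over its probes, at −0.25 (adjusted p = 0.0505). Of the muscle markers 11 rose and 4 fell, and *Lpl* rose by 1.05. The leukocyte marker *Cd3e*, the only one of 6 detected, fell by 0.56 and the neural marker *Tubb3* by 0.35 over the same span, and the part of these markers in the falls was not tested. *Rpl3l* differed by 0.59 ± 0.25 (adjusted p = 0.0933). *Rpl6*, of the large subunit, was detected on none of the 3 silenced arrays at 96 h and on 2 of 3 at 48 h. It was at least 1.10-fold lower at 96 h, with an adjusted p of 0.0823, and so was not called. A signal this close to the detection limit says little of the level of its mRNA.

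Whether the change with time differed between silenced and control cells was tested directly as an interaction, which equals the silencing effect at 96 h minus that at 48 h. It lay below 0 in 52 of 61 members, with a median of −0.20 against 0.01 over all genes tested. Past the threshold were 5, all lower and all of the large subunit: *Rpl22l1*, *Rpl27a*, *Rpl7a*, *Rpl22* and *Rpl30*. Over all genes tested 4.49% were called, 2.38% higher and 2.11% lower. At an unadjusted p under 0.05 there were 22 members lower and 0 higher. At that level 11 rose and 0 fell for silencing at 48 h, and 28 rose and 2 fell with time in control cells. The share of all genes at that level was not counted in any comparison, so these counts cannot be set against it. All 5 members past the adjusted threshold were also among the 20 that rose with time in control cells, a comparison that uses the same control arrays. Among the markers, *Lpl* had an interaction of −1.04 ± 0.16 (adjusted p = 0.0116) and *Mef2c* of −0.84 ± 0.19 (adjusted p = 0.0353), in the direction of the members, and no other marker was called. Their part in the members' interaction was not tested. The interaction also lay below 0 in 13 of 18 elongation factors and other TOP mRNAs (median −0.21). Of 69 mitochondrial ribosomal protein genes 49 were below 0 (median −0.11), against 10 of 20 translation initiation factors.

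*Rpl27a* had the smallest adjusted p. Its log2 signals were 10.75, 10.67 and 10.67 in silenced cells and 10.88, 10.99 and 10.89 in control cells at 96 h, and 11.08, 10.98 and 11.04 in silenced cells and 10.47, 10.65 and 10.71 in control cells at 48 h. The silenced arrays lay below the controls at 96 h and above them at 48 h, without overlap on either day. The interaction was −0.65 ± 0.11 (log2, SE, adjusted p = 0.0151), and a second, dimmer probe gave −0.52 ± 0.15. *Rpl22l1* had an interaction of −0.73 ± 0.18 (adjusted p = 0.044), with 7.75, 8.11 and 8.17 in silenced cells and 7.64, 7.89 and 7.84 in control cells at 48 h, which overlapped.

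*Rpl7a*, of the large subunit, had 11.77, 11.67 and 11.66 in silenced cells and 12.08, 12.06 and 11.93 in control cells at 96 h, which lay apart. At 48 h it had 11.78, 11.82 and 11.96 in silenced cells and 11.52, 11.70 and 11.81 in control cells, which overlapped. Its interaction was −0.50 ± 0.13 (adjusted p = 0.0488). *Rpl30* had 11.55, 11.62 and 11.64 in silenced cells and 11.77, 11.79 and 11.62 in control cells at 96 h, and 11.81, 11.80 and 11.81 in silenced cells and 11.40, 11.54 and 11.57 in control cells at 48 h. The days differed by −0.43 ± 0.11 (adjusted p = 0.0494). *Rpl22* had an interaction of −0.50 ± 0.13 (adjusted p = 0.0494), with 11.003, 11.04 and 11.18 in silenced cells and 11.09, 11.10 and 11.08 in control cells at 96 h, which overlapped, and a gap between the groups at 48 h.

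**Figure D3:**
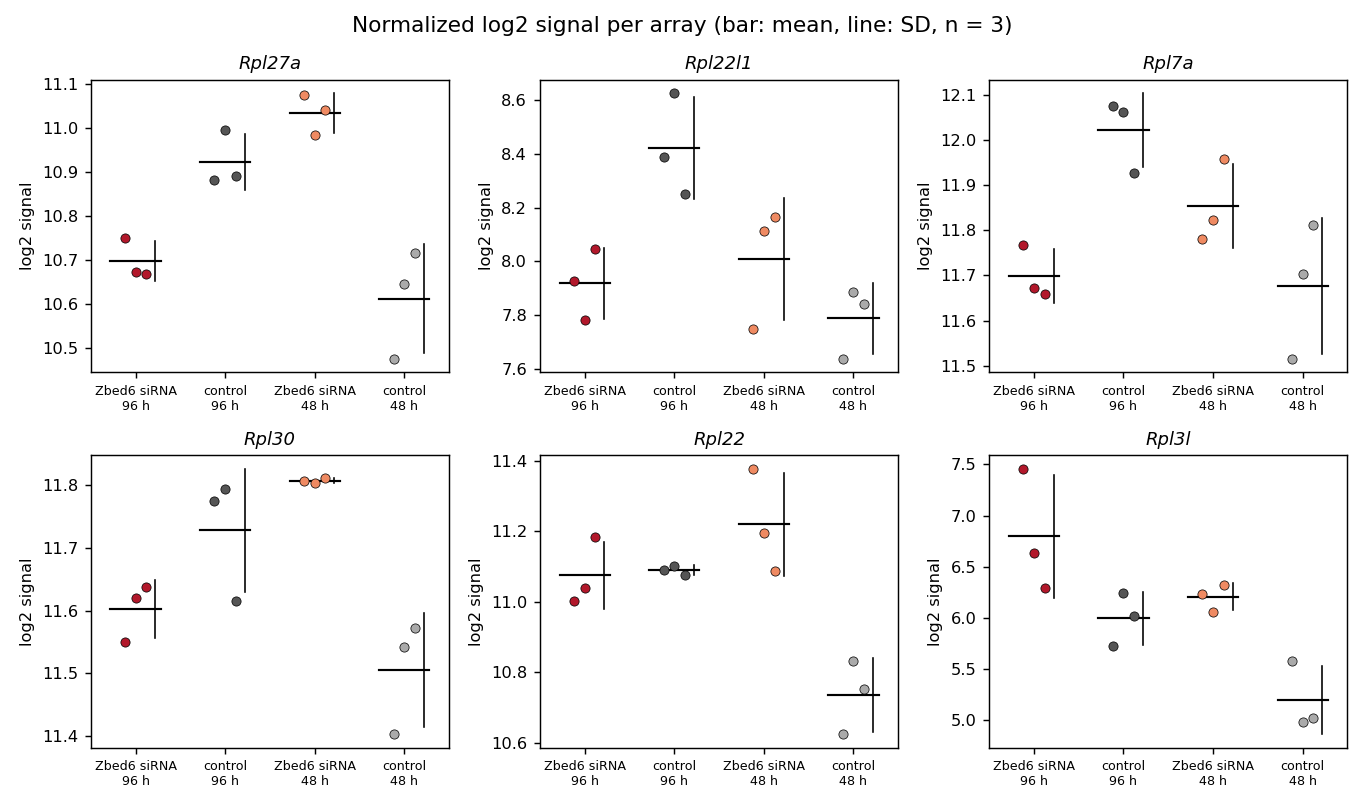
Normalized log2 signal on each array for the 5 members with a different silencing effect on the 2 days and for *Rpl3l*. Each point is 1 array, bars are means and vertical lines SD (n = 3); each panel has its own axis, which does not start at 0. *Rpl27a* is below control at 96 h and above it at 48 h, while *Rpl3l* is above control on both days.

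Only *Rpl27a* kept its interaction call when any 1 of the 12 arrays was left out, and the number of members called was then 1 to 3. It was 18 with the authors' processed values and 12 with median scaling, but 2 without the filter on dim probes, which ended the calls of *Rpl22l1*, *Rpl22* and *Rpl7a*, and 1 with the replicate number as a block, where *Rpl27a* alone was left. Over all genes 3.52%, 2.59%, 0.808% and 1.1% were called lower in these settings, in that order, against 2.11%. The *Rpl22l1* interaction was −0.31 with the authors' values (adjusted p = 0.0409).

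**Figure D4:**
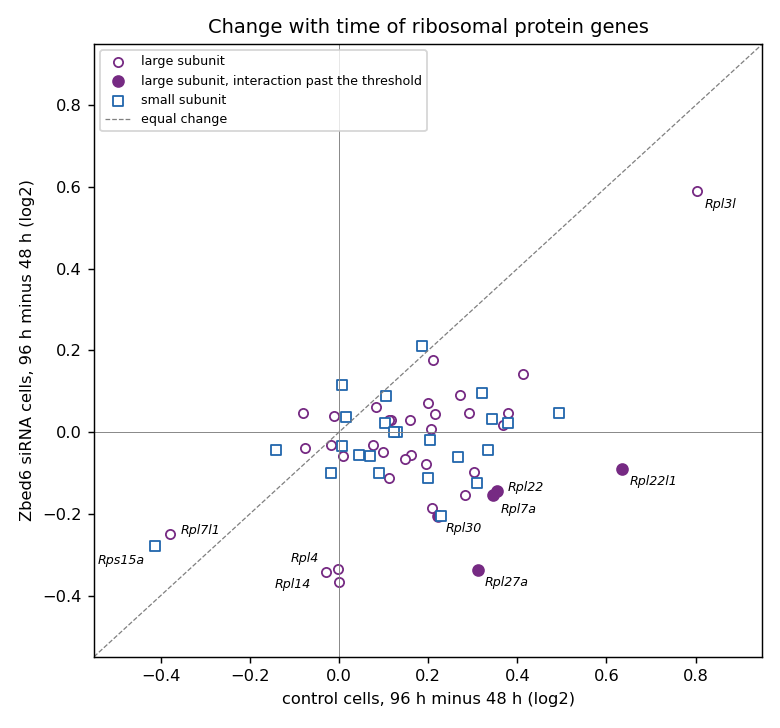
Change with time (96 h minus 48 h, log2) of each measured member in control cells (horizontal) and in silenced cells (vertical); circles are large and squares small subunit genes, filled where the interaction passed the threshold. Most points lie below the dashed line of equal change, which matches the 52 of 61 interactions below 0.

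The members split by brightness. Of the 61, 28 had a mean log2 signal of 14 or more, of 93 such genes among all tested. None of the 28 was called for silencing on either day or for the interaction, against 6 of the 33 dimmer members at 48 h and 5 of 33 in the interaction. The same held over all genes: of the 93 bright ones none was called at 48 h or in the interaction and 2 rose at 96 h, while of the 8765 dimmer ones 410 rose and 497 fell at 48 h and 211 rose and 187 fell in the interaction. The 0 of 28 is therefore the share of bright genes in general at 48 h and in the interaction. It rests on the brightest probe of each gene. A dimmer probe of *Rpl31* gave 0.47 ± 0.10 at 48 h (limma, adjusted p over kept probes = 0.0296) and an interaction of −0.71 ± 0.12 (0.016). A dimmer probe of *Rpl38* gave 0.42 ± 0.09 at 48 h (0.0294) and was not called in the interaction. Other probes of *Rpl23*, *Rps3*, *Rps19* and *Rps24* were called in neither. Those of *Rpl23* disagreed in direction. Its probe with a mean log2 of 14.1 gave −0.53 ± 0.14 at 48 h (0.0514) and an interaction of 0.44 ± 0.18 (0.166), opposite to the members' medians. Its probe with a mean log2 of 10.3 gave 0.27 ± 0.11 (0.16) and −0.54 ± 0.14 (0.0553). Over time in control cells 6 of the 28 rose, against 14 of the 33 that rose and 2 that fell; of all 93 bright genes 12 rose and 9 fell. The median difference at 48 h was 0.04 in the 28 and 0.18 in the 33, with median SE of 0.09 in both, and the median interaction was −0.12 and −0.31. The part of probe brightness in these counts was not tested. Large and small subunit genes moved in the same direction by their medians in all 5 comparisons, and their difference was not tested, since genes of a subunit are not replicates.

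**Figure D5:**
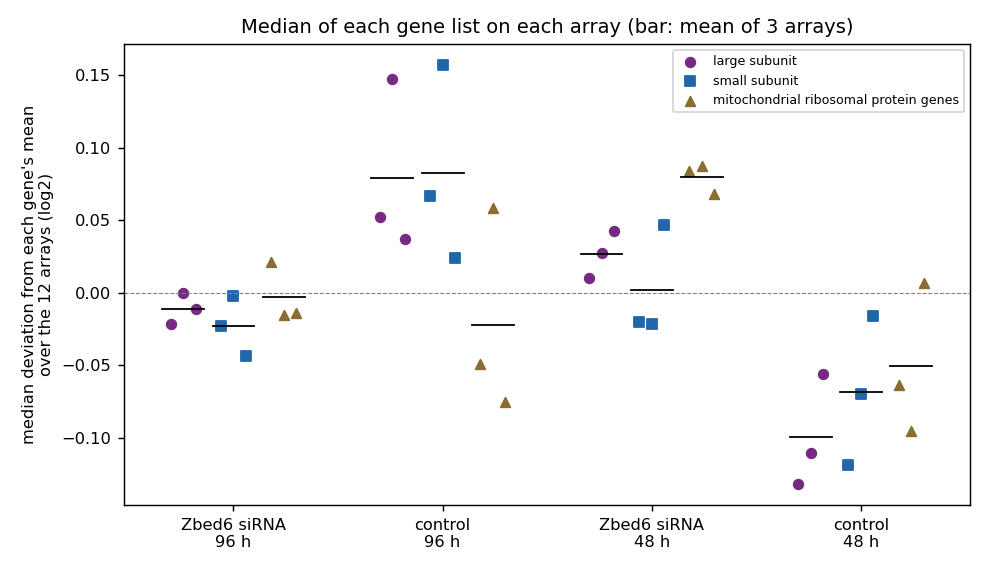
Median deviation of each list from its genes' means over the 12 arrays (log2), 1 point per array, bars the mean of 3 arrays, for large subunit, small subunit and mitochondrial ribosomal protein genes. By the mean of 3 arrays, large and small subunit medians are highest in 96 h control cells and lowest in 48 h control cells, while single arrays of some groups overlap.

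Among other translation genes, the 69 measured mitochondrial ribosomal protein genes had 13 higher and 7 lower with time in control cells (median 0.03), which is 18.8% and 10.1% against 17.7% and 15.2% of all genes. In silenced cells 10 fell and none rose with time (median −0.09), 14.5% against 12.4% of all genes that fell. Both shares of the more frequent direction were near those of all genes. In silenced cells, however, 0% of the list rose, against 15.6% of all genes, and 47 of the 69 lay below 0. In silenced against control cells 2 rose at 48 h, 2.9% against 4.63%. Of 27 ribosomal subunit assembly factors, which act in the nucleus and cytoplasm before a subunit is mature, 11 fell with time in control cells (40.7% against 15.2% of all genes) and 10 in silenced cells (37% against 12.4%), and none rose. *Noc3l*, of the large subunit pathway, fell by 0.68 in control cells and by 0.58 in silenced cells. In silenced cells at 48 h, 3 of the 27 rose (11.1% against 4.63%): *Tsr2*, a chaperone of eS26 (0.73 ± 0.16 at 48 h, interaction −0.86 ± 0.20), *Ebna1bp2* (0.35 ± 0.09, interaction −0.43 ± 0.11) and *Rrs1* (0.38 ± 0.09).

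Of 18 measured elongation factors and other TOP mRNAs, 3 rose and 1 fell with time in control cells, with a median of 0.16, and 1 rose and 2 fell in silenced cells, with a median of −0.03. The shares that rose were 16.7% and 5.56%, against 17.7% and 15.6% of all genes. *Tpt1*, whose mRNA is a known TOP mRNA, rose by 1.09 ± 0.13 in control cells and by 0.43 ± 0.13 in silenced cells, and was 0.54 ± 0.14 higher in silenced than in control cells at 48 h (adjusted p = 0.0452). *Eef1b2*, an exchange factor for eEF1A, had an interaction of −0.40 ± 0.10 (adjusted p = 0.0468), and *Hnrnpa1* of −0.97 ± 0.22 (adjusted p = 0.0334). Translation initiation factors had 1 of 20 higher and 5 lower with time in control cells (5% and 25%, against 17.7% and 15.2%), among them *Eif3c* (−0.61 ± 0.10) and *Eif4g2* (−0.79 ± 0.18). Of 19 genes of mTORC1 and the control of TOP mRNAs, 2 rose in silenced cells at 96 h, where 3.44% of all genes did: *Mtor*, the kinase itself (0.40 ± 0.08), and *Tsc2*, its inhibitor (0.34 ± 0.08).

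Not every member could be read. The probes of *Rplp2*, *Rpl17*, *Rps23*, *Rpl39l* and the retrogene *Rps23rg1* were detected on 0 of 12 arrays, with raw signals of 49.2 to 79.2. A probe that is not detected says nothing of the level of its mRNA when the match of the probe is not known. *Rpsa*, of the small subunit, was measured, with 5.71, 5.87 and 5.52 in silenced cells and 5.76, 5.98 and 5.84 in control cells at 96 h, and it passed in no comparison. These signals were detected but low beside those of most members, so the lack of a call says little of its mRNA. Of the 13 members with several kept probes, none had probes called in opposite directions, but the signs of the differences disagreed in 3 to 7 of the 13, depending on the comparison. In *Rpl4* the dimmer probe gave a silencing effect of 0.59 ± 0.11 at 48 h and an interaction of −0.94 ± 0.14, against 0.18 ± 0.09 and −0.33 ± 0.11 for the brighter probe used here. In *Rpl29* the dimmer probe fell by 0.50 with time in control cells, while the brighter one differed by 0.21 ± 0.10. Ribosomal protein genes have many processed pseudogenes, whose RNA a probe may also bind, and this was not tested.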

How the data were processed

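The members, gene lists and comparisons were chosen with earlier results of these data known. The deposited values are the raw intensity of each probe on each array, before any normalization, and per the file headers a detection p-value for each probe and array. The authors also deposited processed log2 values, made with lumi, whose exact transformation is not stated; they served as an alternative, and each column matched the raw signal of its own array best (r of 0.777 to 0.848 after removal of probe means, against 0.642 or less for other arrays).

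Intensities were background corrected by normexp from the detection p-values with an offset of 16, log2 transformed after quantile normalization across all 12 arrays (limma 3.58.1, R 4.3.3). A probe was kept if 3 or more of the 12 arrays detected it (p under 0.05), and the brightest one stood for its gene. All 66 gene IDs were found in RefSeq, and 0 symbols changed. A fold against a group below detection on all its arrays is a lower bound, set against the lowest detected signal.

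Silencing was tested within each day (6 arrays) by the moderated test of limma, as in the study's methods, and the changes with time and the interaction in 1 fit of 4 group means. P-values were adjusted over 8858 genes. Alternatives were median scaling, the authors' values, an offset of 50, leaving out the background correction, no or a stricter filter, the mean of a gene's probes, the replicate number as a block, all 12 arrays in 1 fit, and each array left out in turn. The code was tested on simulated data. A slide for each array is not given in the sources, and no slide block was fitted. The number of arrays limits the precision.

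Named were the paralogs with their partners, members past the threshold (up to 10 by p in each direction), the 3 highest and 3 lowest differences, the stalk genes, *Rpsa* and *Fau*, and up to 3 genes of each further list. *Rpl6*, *Rpl29*, the dimmer *Rpl4* probe and the other probes of bright members were named after their values were seen. The number of value columns of no sample was 0.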

Additional observations from a re-analysis of the deposited data

Results flagged for a closer look

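The silencing effect of 5 members differed between the days by the interaction test: *Rpl22l1* by −0.73, *Rpl27a* by −0.65, *Rpl7a* by −0.50, *Rpl22* by −0.50 and *Rpl30* by −0.43 (log2, 96 h minus 48 h, limma adjusted p of 0.0151 to 0.0494). In *Rpl27a* the 3 silenced arrays lay below all control arrays at 96 h and above all of them at 48 h.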

How the results depend on the processing

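No call of a named member changed direction under the alternatives run. The count of members past the threshold for silencing at 48 h (6) was 11 with the authors' processed values, 12 with median scaling, 2 with the replicate block and 1 to 2 without single arrays. Over all genes 5.69% were called higher with the authors' values, 6.01% with median scaling and 3.38% with the block, against 4.63%. At 96 h the count (1) was 4 with the authors' values, 3 without background correction, 3 with an offset of 50, 0 without the filter on dim probes, 2 with the stricter filter, 0 with the replicate block, 2 with all 12 arrays in 1 fit and 0 without any 1 of the 6 arrays. Over all genes 3.5% were called lower with the authors' values, 5.76% without background correction and 5.66% with an offset of 50, against 3.39%. It was 1.1% without the filter, 4.98% with the stricter one, 1.48% with the block and 4.09% in 1 fit. Over time in control cells the count (22) was 17 to 23 without single arrays. With the authors' values 27 members rose and 2 fell, with median scaling 14 and 2, and with the replicate block 18 and 2. Over all genes 17.2%, 15.7% and 16.8% rose in these settings, against 17.7%. The shares that fell were 15.8%, 16.1% and 14.4%, against 15.2%. Over time in silenced cells the count (3) was 7 with the authors' values, 5 without background correction, 12 with median scaling, 6 with an offset of 50 and 2 to 4 without single arrays. Over all genes 13.1% fell with the authors' values, 13.4% without background correction, 16.6% with median scaling and 13.3% with an offset of 50, against 12.4%. For the interaction the count (5) was 18 with the authors' values, 11 without background correction, 12 with median scaling, 9 with an offset of 50, 2 without the filter, 1 with the replicate block and 1 to 3 without single arrays. Over all genes 3.52% were called lower with the authors' values, 3.93% without background correction and 2.59% with median scaling, against 2.11%. It was 3.69% with an offset of 50, 0.808% without the filter and 1.1% with the block. Median scaling also moved the members' median log2 difference to 0.22 at 48 h, −0.19 over time in silenced cells and −0.33 for the interaction, and the share of higher calls among all genes to 44.6% over time in silenced cells and 42.2% for the interaction, against 55.8% and 53% with quantile normalization. Without control replicate 2 of 96 h the median interaction was −0.14. The cause of these shifts was not tested. Deviations of samples with the same replicate number had r of −0.22 to 0.17, and those with different numbers −0.27 to 0.25. For control cells at 48 h against silenced cells at 96 h the same-number r (0.04 to 0.12) lay above all others (0.01 or less). With 3 arrays per group these values cannot settle whether the numbers pair the samples.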
